A study of Mus musculus with 157 samples.

Results

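The CCT chaperonin genes are the 8 genes that encode the subunits of the cytosolic chaperonin CCT, also called TRiC. They were found by gene name (Tcp1, Cct2, Cct3, Cct4, Cct5, Cct6a, Cct7 and Cct8) among the 19600 genes of a count table of polysome fractions from mouse splenic B cells, and all 8 were present and passed every filter on low counts. CCT is a pair of stacked rings in which each ring holds 1 copy of each of 8 related subunits. It closes around newly made chains and folds them with energy from ATP, and actin and tubulin are its best known clients. In the ring the subunits of Tcp1, Cct4, Cct2 and Cct5 lie side by side and bind ATP tightly, and those of Cct7, Cct8, Cct6a and Cct3 form the other side. A B cell that has been activated to divide makes much new protein and cytoskeleton, and needs such folding.

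Splenic B cells of young adult C57BL/6Babr mice were activated with LPS, the bacterial lipopolysaccharide that drives B cells into division. Every group carried LPS at 10 µg/ml, and there was no unstimulated group. The LPS group was kept in LPS for 48 h. The LPS+ET group then received 20 µM etoposide for 4 h, a topoisomerase II poison that breaks DNA. The LPS+ET+KU group received 10 µM KU55933, an inhibitor of the DNA damage kinase ATM, for 1 h after 47 h in LPS and was then given the same etoposide. The design has no KU55933 group without etoposide, so an effect of the inhibitor alone cannot be told apart. Cytoplasmic extracts, made after 3 min in cycloheximide at 100 µg/ml to hold ribosomes on their mRNA, were spread on sucrose gradients. Fractions 4 to 7 were monosomes, 8 to 10 light polysomes and 11 to 16 heavy polysomes. Each group had 4 gradients of 13 fractions, and the gradients of the 3 groups were run in 4 library pools, LUL15 to LUL18. Values for the 4 gradients of a group are given in that order.

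The libraries counted the 3′ ends of mRNAs, 1 tag per molecule, so a count does not grow with the length of the mRNA and levels of different genes can be set side by side without dividing by length. A level is given here in counts-per-million (CPM) of a gradient's counts over fractions 4 to 16. Library totals ran from 14724 to 4170688 counts with a median of 811932, and gradient totals from 6404957 to 21449781. In all, 12 of 156 libraries held under 100000 counts. The LPS+ET gradient of pool LUL16 stood apart, with 4 such libraries among its heavy fractions, which gave 30.4% of its counts against 60.5 to 68.2% in the other LPS+ET gradients. Cdkn1a, the cell cycle inhibitor induced by p53, stood at 26.9 ± 4.29 CPM (SD, n = 4) in LPS, 722 ± 167 in LPS+ET and 662 ± 184 with KU55933 added. T cell markers (5 of 6 in the table, Cd4 not among them) summed to at most 4.48 CPM in any gradient. Myeloid markers (7 of 8, without Adgre1) summed to 31.7 to 86.7 CPM in LPS, 47.6 to 163 in LPS+ET and 32.4 to 125 with KU55933 added. Of these, Cd14 (log2 change 3.83 ± 0.51, adjusted p 2.5e-04) and Fcgr3 (1.87 ± 0.39, 0.0047) rose between LPS and LPS+ET+KU (edgeR), and Cd14 in heavy polysomes with etoposide. Cd22, a receptor on B cells, fell with etoposide by 2.12 ± 0.40 (adjusted p 0.0017) and was lower by a log2 change of -1.82 in LPS+ET+KU than in LPS. NK cell markers (2 of 4) stayed at or under 2.66 CPM, and Pf4, the only platelet marker in the table, ranged from 1.07 to 3.49 CPM. The part of other cells in the values below was not tested.

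The counts of each CCT gene came from few poly(A) sites, most of which are shown because every value below is a count of tags at these ends. The sequences are the last 30 bases of the mRNA before each site in GRCm38, 5′ to 3′, read from GENCODE transcripts, and capitals mark the poly(A) signal hexamer AATAAA or ATTAAA. Tcp1, the alpha subunit, had 86.4% of its counts at chr17:12924939-12924968 and 13.6% at chr17:12924529-12924558, both on the plus strand and in the 3′ UTR. The sites of Cct3 (chr3:88321738-88321767, plus strand), Cct4 (chr11:23003308-23003337, plus), Cct5 (chr15:31590883-31590912, minus) and Cct7 (chr6:85468354-85468383, plus) held all of their gene's counts and lay in the 3′ UTR. The main site of Cct8 (chr16:87483875-87483904, minus) held 88.9% of its counts and lay in the 3′ UTR. Cct6a had 78.8% of its counts at 1 site and 21.2% at another that has no such hexamer, both in an exon that GENCODE M21 gives only to a non-coding transcript and not in an annotated 3′ UTR.
Tcp1 main site: aaccttaggAATAAAtaggcctatgtgaca
Tcp1 nearer site: gtgtctcacATTAAAgtacagcaagctgac
Cct3: gcttccaatgATTAAAtctaagtcatttga
Cct4: aaaacATTAAAtacttggttttaaactcca
Cct5: actgtgactaAATAAAgggtgtgtctgttg
Cct7: ctgaggttatttaAATAAAgcttaaggtta
Cct8 main site: ctgggtggtacAATAAAtgtgttactgtta
A hexamer stood 11 to 19 bases before each of these 7 sites. The 2 Tcp1 sites gave 3′ UTRs of 492 and 82 bases. Both lay inside Acat3, a gene on the opposite strand, and whether the counting used strand is not given in the sources used here, so tags of Acat3 there cannot be told apart. The minor Cct8 site, with 11.1% of the counts, likewise lay inside Usp16 on the opposite strand. The only Cct2 site lay 4 bases past its last annotated exon, and its gene spans chr10:117050998-117063814 on the minus strand. Coding lengths, each the longest among the main annotated coding transcripts of the gene, were alike in 7 members, from 1605 to 1668 bases. None was taken for Cct6a. The related genes Cct6b, a testis form of the zeta subunit, and Cct8l1 held 138 counts and 1 count over all 12 gradients.

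RefSeq promoters of GRCm38.p6, 250 bases before to 50 after each start, were matched for 7 of the 8 members, all but Cct4. A GC box (GGGCGG, either strand) stood in all 7, against 35.7% of 32851 promoters, and CCAAT (either strand) in 4, those of Cct3, Cct6a, Cct7 and Tcp1, against 37.4%. The E-box CACGTG and the heat shock pattern GAANNTTC stood in none of the 7, against 7.15% and 7.86% of all promoters. Because the data are on ribosome loading, the bases from each annotated start were read too. A start of C followed by 4 pyrimidines, the mark of terminal oligopyrimidine mRNAs, stood at none of the 7 starts and at 2.51% of all. The 5′ ends in these cells were not measured, so the starts they use can differ from the annotated ones. The starts of the members that the results below turn on, Tcp1 (chr17:12916309-12916338, plus strand) and Cct3 (chr3:88297115-88297144, plus), are given with the transcribed bases in capitals.
Tcp1: gtcccgcagccccctacttcCGGCGTTTTC
Cct3: cagaggttagcaggtttctgTGTCATTCCT

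All 8 genes were abundant on ribosomes, and their levels were not equal. In LPS, Cct7, the eta subunit, led at 713, 675, 712 and 644 CPM, a mean of 686 ± 33.1. Cct6a, the zeta subunit, followed at 544, 455, 418 and 415 CPM, and Cct8, the theta subunit, at 307, 299, 356 and 355 CPM. These 3 levels did not overlap. Next came Cct3, the gamma subunit, at 260, 298, 250 and 269 CPM. Tcp1 had 291, 312, 195 and 203 CPM, high in pools LUL15 and LUL16 and low in LUL17 and LUL18. Cct5, the epsilon subunit, had 233, 212, 234 and 221 CPM. Neighbours among Cct3, Tcp1 and Cct5 overlapped, and neither Cct3 against Tcp1 nor Tcp1 against Cct5 kept its order in more than 2 of 4 gradients. The lowest levels were those of Cct4, the delta subunit, at 182, 194, 188 and 183 CPM, and Cct2, the beta subunit, at 136, 135, 96.4 and 142 CPM, which stood below all others in each of the 4 gradients. By mean level over the 12 gradients, Cct7 ranked 187 and Cct2 ranked 1149 of 19600 genes, with the other 6 between them. Summed over the 8 members, the level was 2532 ± 112 CPM in LPS, 2603 ± 172 in LPS+ET and 2101 ± 189 with KU55933 added.

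**Figure D1:**
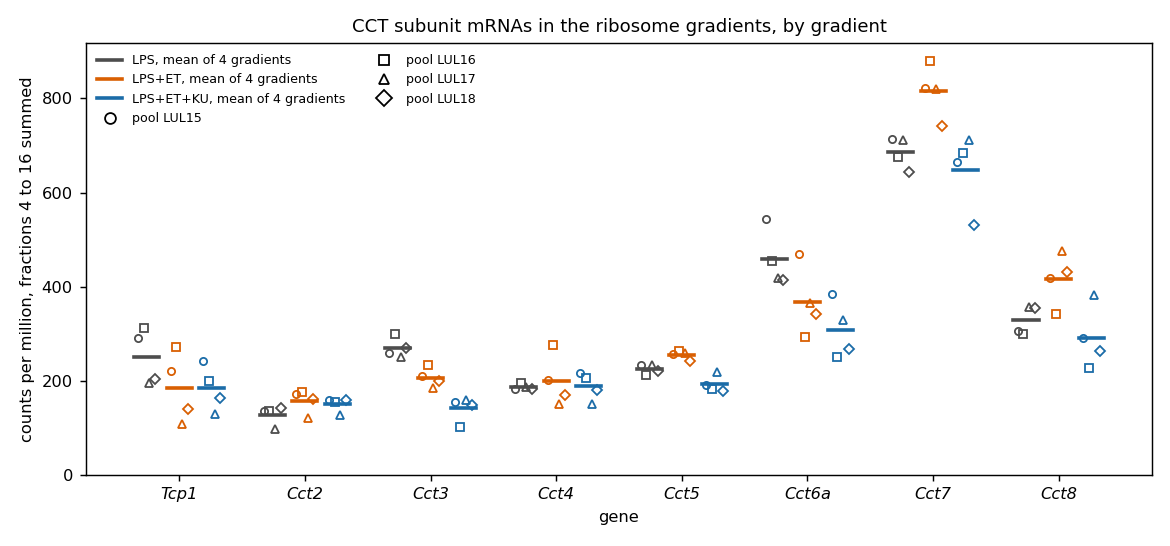
Level of each CCT gene in CPM of a gradient's counts over fractions 4 to 16, with 1 point per gradient (the shape gives the library pool) and the mean of 4 gradients as a bar, for LPS (grey), LPS+ET (orange) and LPS+ET+KU (blue). Cct7 stood highest in all 3 groups (means of 686, 816 and 648 CPM), and the LPS+ET+KU points of Cct3 (102 to 159 CPM) lay below all its LPS points (250 to 298 CPM).

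The first comparison asked which ribosome-associated mRNAs change with DNA damage. For the summed level, etoposide left the CCT genes without a call: 0 of 8 passed an adjusted p of 0.01 (edgeR quasi-likelihood test, Benjamini-Hochberg over 12755 genes), where 12.7% of all genes tested passed. DESeq2 called 0 members and 12.2% of all genes given to it, and 2 members and 34.4% of genes were at an unadjusted p under 0.05. The members' median log2 change was 0.02 and that of all genes 0.03. Cct3 had 210, 234, 184 and 199 CPM in LPS+ET, all below its 4 LPS values, a log2 change of -0.50 ± 0.18 (SE) with an adjusted p of 0.062. Cct6a was at 470, 292, 365 and 343 CPM in LPS+ET, which overlaps LPS, with a log2 change of -0.44 ± 0.17 and an adjusted p of 0.087. Cct8 (342 to 477 CPM), Cct7 (741 to 879 CPM), Cct2 (122 to 175 CPM) and Cct5 (243 to 262 CPM) had positive estimates, the highest 0.23 for Cct8.

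Tcp1 differed between library pools. It had 221, 271, 108 and 139 CPM in LPS+ET, below the LPS gradient of the same pool in each pool, although the groups as a whole overlapped. The log2 change was -0.56 ± 0.28 with an adjusted p of 0.18. With the pool as a replicate block it was -0.60 ± 0.14 with an adjusted p of 0.0045 (edgeR), and Tcp1 was then the only member called, where 26.7% of all genes passed.

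Addition of KU55933 to etoposide was the next comparison, and asks what depends on ATM. Here 0 of 8 members passed and 0.455% of all genes did. The 8 estimates were below 0, with a median of -0.30 against 0.04 for all genes, and 4 members and 15.9% of genes were at an unadjusted p under 0.05. Cct5 alone was called by DESeq2 (log2 change -0.43, adjusted p 0.0094), which called 2.11% of genes. Cct5 was 257, 262, 259 and 243 CPM in LPS+ET and 191, 182, 218 and 178 CPM with the inhibitor, with no overlap, and its edgeR estimate was -0.41 ± 0.14 with an adjusted p of 0.155. Heavy fractions gave 46.9% of a gradient's counts on average in LPS+ET+KU (37.6 to 55.5%). They gave 56.0% in LPS+ET (30.4 to 68.2%) and 56.4% in LPS (52.3 to 62.4%). In LPS the CCT mRNAs sat mostly in heavy fractions. Whether the depth of these fractions bears on the level estimates was not tested. When each fraction was given equal weight, the median of the 8 estimates was -0.07 in place of -0.30, and Cct2 and Cct6a had positive estimates. With the pool as a replicate block 0 of 8 members passed, where 6.36% of genes did.

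Against LPS, the ribosome-associated level of Cct3 mRNA was lower with etoposide and KU55933. Its level was 156, 102, 159 and 148 CPM in LPS+ET+KU, against 250 to 298 CPM in LPS, a log2 change of -1.05 ± 0.18 with an adjusted p of 0.0014 (edgeR). Cct3 was the 1 member of 8 that passed, in a comparison in which 10.7% of all genes passed, so the number of members called is close to that share. Cct3 was called with any 1 of the 12 gradients left out. With equal weight per fraction it fell by 0.58 ± 0.13 with an adjusted p of 0.0085 (limma), and the members' median moved from -0.32 to -0.03. Cct6a was at 385, 250, 328 and 268 CPM, below its 4 LPS values, with a log2 change of -0.69 ± 0.17 and an adjusted p of 0.0121. With the library pool as a replicate block Cct6a (log2 change -0.71, adjusted p 9.9e-04) and Tcp1 (-0.56, adjusted p 0.0070) were called beside Cct3, where 28.1% of all genes passed. DESeq2 called 3 members, Cct3, Cct5 and Cct6a, and 11.6% of genes. Cct2, at 159, 155, 127 and 158 CPM, had the only positive estimate, 0.12 ± 0.18. The LPS gradients serve in this comparison and in that of LPS+ET with LPS, so their results are not independent.

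The 3 classes of fractions were then compared by themselves, in CPM of the class. In monosomes Cct4 rose with etoposide, from 139, 130, 139 and 125 CPM in LPS to 183, 297, 215 and 199 CPM in LPS+ET, with no overlap. Its log2 change was 0.80 ± 0.17 with an adjusted p of 0.0055 (edgeR), and it was the 1 member of 8 called, where 9.52% of all genes passed. The call held in 5 of 12 fits with 1 gradient left out, and was lost without the LPS gradient of LUL15, LUL16 or LUL18, the LPS+ET gradient of LUL16, LUL17 or LUL18, or the LPS+ET+KU gradient of LUL15. The adjusted p was then at most 0.0297, without the LPS gradient of LUL15. With equal weight per fraction the change was 0.82 with an adjusted p of 0.0219 (limma). DESeq2 called 2 members in monosomes, Cct4 and Cct6a (log2 change -0.42), and 6.63% of genes. Monosomal Tcp1 was 276, 254, 171 and 169 CPM in LPS and 263, 412, 223 and 224 CPM in LPS+ET, which overlap, with a log2 change of 0.43 ± 0.22 and an adjusted p of 0.192.

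In light polysomes 0 of 8 members passed with etoposide, where 10.6% of genes did. Cct2 came nearest, from 102, 89.2, 86.8 and 122 CPM in LPS to 146, 164, 147 and 179 CPM in LPS+ET. Its groups did not overlap, the log2 change was 0.55 ± 0.17 with an adjusted p of 0.037, and the pool as a replicate block gave 0.56 with an adjusted p of 0.0037 (edgeR), where 25% of genes passed. DESeq2 called Cct2 alone there, and 8.35% of genes.

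In heavy polysomes 0 of 8 members passed, where 9.69% of genes did. Tcp1 was 338, 402, 225 and 222 CPM there in LPS and 222, 236, 83.5 and 121 CPM in LPS+ET, lower in every pool. The log2 change was -0.93 ± 0.33 with an adjusted p of 0.061, and with the pool as a replicate block -0.99 with an adjusted p of 0.0018, where 20.6% of genes passed. With KU55933 added to etoposide, 0 of 8 members passed in monosomes, light and heavy polysomes, where 0.213%, 0.292% and 0.572% of genes did, and again 0 of 8 with the pool as a replicate block, where 5.62%, 5.35% and 3.27% did. In heavy polysomes the 8 estimates lay between -0.79 for Cct3 and -0.33 for Cct6a and 4 were at an unadjusted p under 0.05, as were 14.9% of genes. DESeq2 called 2 members there, Cct5 and Cct8, and 1.47% of genes. With equal weight per fraction the members' median there was -0.15 in place of -0.52.

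Levels in CPM do not say where in the gradient an mRNA sits, so the share of each gene in each fraction was computed after every library was scaled to the same total. In LPS the CCT mRNAs sat in heavy polysomes. The fraction with the highest share was 13 or 14 for every member in each of the 4 LPS gradients. Cct3 was the heaviest, with 26.4 ± 9.04% in fraction 14 alone and a mean position of 12.2 ± 0.31 on the scale of fraction numbers. Tcp1 was the lightest, at 10.7 ± 0.18, and kept 8.20 ± 0.49% in fraction 5, a monosome fraction.

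**Figure D2:**
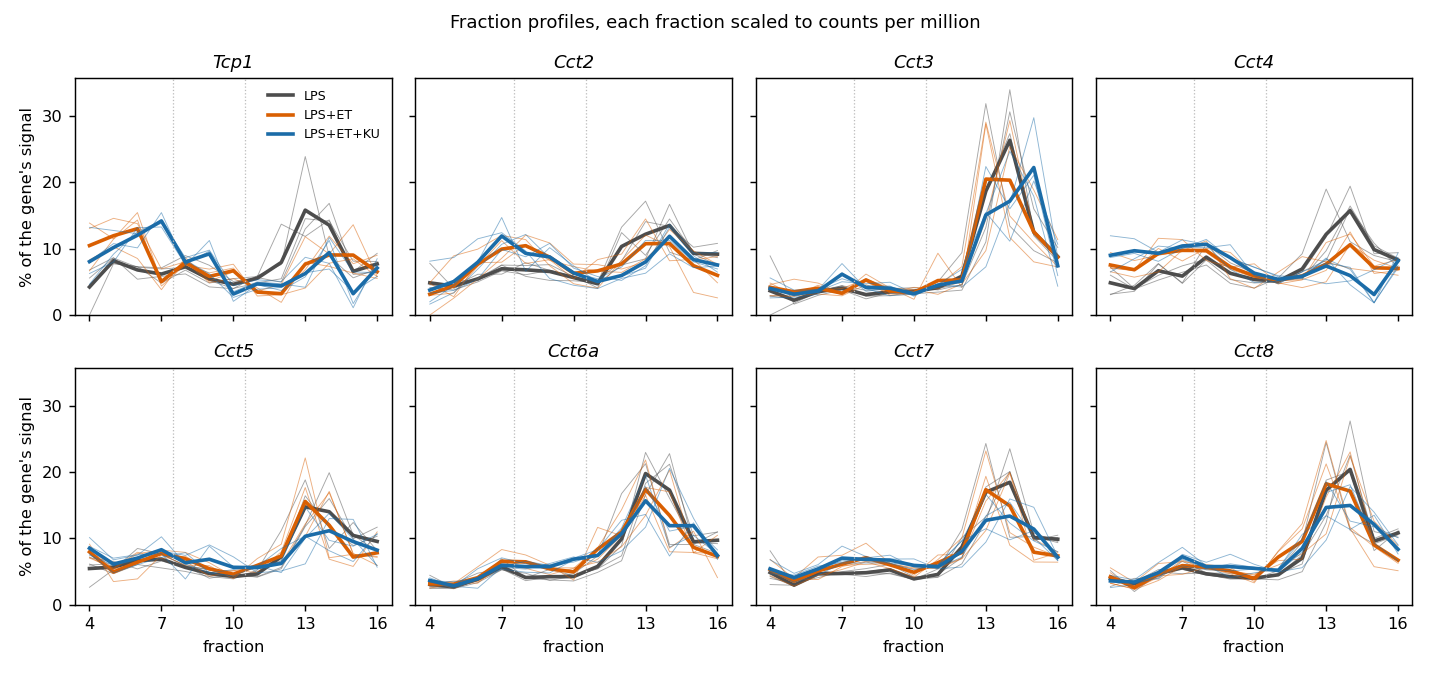
Share of each CCT gene's mRNA in fractions 4 to 16, in percent of its total after each library was scaled to the same number of counts, with a thin line for each gradient and a thick line for the mean of 4 gradients, for LPS (grey), LPS+ET (orange) and LPS+ET+KU (blue). Dotted verticals part monosomes, light and heavy polysomes. In LPS each mean peaks at fraction 13 or 14, and the mean of Tcp1 peaks at fraction 6 in LPS+ET and at fraction 7 in LPS+ET+KU. The single LPS+ET gradients of Tcp1 peak at fractions 15, 5, 6 and 6.

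The heavy polysome share, the percentage of a gene's scaled counts in fractions 11 to 16, separated the members. In LPS it averaged 76.4 ± 2.05% for Cct3, 72.0 ± 1.21% for Cct6a, 69.7 ± 0.48% for Cct8 and 68.8 ± 1.80% for Cct7. It was 60.7 ± 2.49% for Cct5, 59.3 ± 3.93% for Cct2, 58.2 ± 4.12% for Cct4 and 57.2 ± 1.71% for Tcp1. The median over 8000 genes with a mean of 100 counts or more was 55.2%, and over 148 other genes with a coding length between those of the members 57.3%. Thus Cct3 stood above 93.1% of all genes in LPS, and Tcp1 above 54.4%.

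Tcp1 and Cct4 had the lowest heavy shares after treatment. The heavy share of Tcp1 was 55.2, 58.9, 58.4 and 56.3% in LPS, 48.7, 33.2, 32.1 and 42.1% in LPS+ET and 36.5, 30.7, 38.5 and 34.7% with KU55933 added. That of Cct4 was 61.4, 61.9, 53.6 and 55.8% in LPS, 49.4, 42.9, 40.003 and 42.3% in LPS+ET and 38.2, 33.3, 36.7 and 35.4% with KU55933 added. For both genes the LPS values lay above all 8 values of treated gradients, and for Cct4 the LPS+ET values also lay above those with the inhibitor. The share in monosomes went the other way, from a mean of 25.4% in LPS to 40.5% in LPS+ET and 44.5% with KU55933 added for Tcp1, and from 21.4% to 33.4% and 38.5% for Cct4. Against all genes, Tcp1 went from above 54.4% of them in LPS to above 20.7% in LPS+ET and 16.0% with KU55933 added, and Cct4 from 56.8% to 28.1% and 17.1%.

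The test was on log2-odds, the log2 of the part of an mRNA in heavy fractions over the rest. On this scale 2 of 8 members were called between LPS+ET+KU and LPS, in a comparison in which 0.875% of 8000 genes passed (limma). Cct4 fell by 1.32 ± 0.19 with an adjusted p of 0.0057, and Tcp1 fell by 1.31 ± 0.23 with an adjusted p of 0.0085. With the pool as a replicate block the adjusted p was 0.0068 for Cct4 and 0.0135 for Tcp1, so that 1 of 8 members passed, where 0.637% of genes did. Without the libraries of under 100000 counts it was 0.0051 and 0.0152. Any 1 gradient left out kept the call of Cct4 in 5 of 12 fits and that of Tcp1 in 2 of 12, with adjusted p up to 0.0309 for Tcp1. With counts as deposited, where each fraction weighs by its depth, no gene of 8000 passed. When the minimum mean was lowered to 10 counts, no gene of 12227 passed.

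Between LPS+ET and LPS 0 of 8 members passed, where 0.312% of genes did. At an unadjusted p under 0.05 were 5 members and 20.6% of genes. The estimates were -1.07 ± 0.23 for Tcp1, with an adjusted p of 0.027, and -0.85 ± 0.19 for Cct4, with an adjusted p of 0.033. Between LPS+ET+KU and LPS+ET no gene passed, and 1 member, Cct4, had an unadjusted p under 0.05, as had 8.54% of genes, with an estimate of -0.47 ± 0.19. The 8 estimates were below 0 in all 3 comparisons, with medians of -0.42, -0.22 and -0.60 against -0.04, 0.01 and -0.02 for all genes. Between LPS+ET and LPS 1 of 8 was above 0 with counts as deposited (0.12) and 1 without the shallow libraries (0.06). The members' median between LPS+ET+KU and LPS+ET was -0.98 with counts as deposited, against -0.37 for all genes, and -0.39 without the shallow libraries. The median heavy share of the members was thus 64.7% in LPS, 58.9% in LPS+ET and 54.8% with KU55933 added, while the median gene stood at 55.2, 53.9 and 54.7%. Each library was scaled to the same total, which holds the median gene nearly in place. A shift common to all mRNAs therefore cannot be seen in these shares, and the study reports that etoposide reduced polysome assembly globally. The shares show members only relative to other genes.

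**Figure D3:**
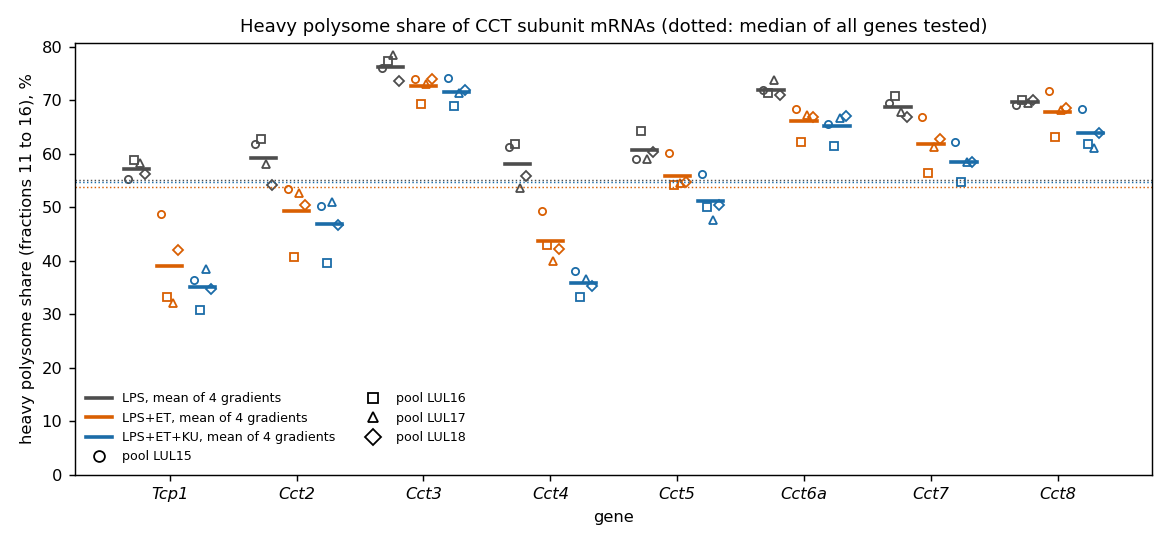
Heavy polysome share of each CCT gene in percent, with 1 point per gradient (the shape gives the library pool), the mean as a bar, and the median of all genes tested as a dotted line for each treatment. Tcp1 goes from a mean of 57.2% in LPS to 39.02% in LPS+ET and 35.1% with KU55933 added, and Cct4 from 58.2% to 43.7% and 35.9%, while the means of Cct3 are 71.6% or above.

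The other members differed less between the groups. Cct3 kept 73.6 to 78.4% in heavy polysomes in LPS, 69.3 to 74.1% in LPS+ET and 69.0 to 74.1% with KU55933 added, and its groups overlapped. Without the libraries of under 100000 counts its LPS values, 75.5 to 78.4%, did not overlap those with the inhibitor, 69.0 to 71.9%, nor did they with counts as deposited (80.4 to 87.7% against 54.9 to 74.8%). Cct8 had 69.1 to 70.1%, 63.1 to 71.8% and 61.1 to 68.4%. Cct6a (means of 72.0, 66.2 and 65.2%), Cct7 (68.8, 61.9 and 58.5%), Cct5 (60.7, 55.9 and 51.1%) and Cct2 (59.3, 49.4 and 46.9%) stood between these and the pair of Tcp1 and Cct4. For Cct2, Cct5, Cct6a, Cct7 and Cct8 the LPS+ET+KU values lay below all LPS values, but none was called, with adjusted p from 0.069 to 0.258 (limma). The share of all genes whose groups lie apart in this way was not computed, here or for Tcp1 and Cct4. At an unadjusted p under 0.05 (limma) between LPS+ET+KU and LPS were 6 of 8 members and 1677 of 8000 genes.

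A difference between members within the same gradient does not depend on how the gradient was scaled as a whole. For each member the log2-odds of its heavy share was therefore set against the mean of the other 7, a measure added after the values were seen. From LPS to LPS+ET+KU, the difference relative to the other 7 was -0.67 for Tcp1, -0.68 for Cct4, 0.41 for Cct3 and 0.39 for Cct8. The measure ties the members to each other, so falls of Tcp1 and Cct4 raise the values of the rest. The heavy shares of Cct3 and Cct8 themselves did not rise, with means of 76.4 and 69.7% in LPS and 71.6 and 63.8% in LPS+ET+KU. The 4 gradients of each group did not overlap for these 4 members or for Cct7 (0.09). The exact permutation p was 0.0286 (two-sided), the smallest that 70 splits of 8 gradients can give, and after adjustment over the 24 tests it was 0.0686. Even unadjusted, this smallest p lies above the threshold for a call. The permutation test therefore could not call any member, whatever the values, and it did not use the pools. From LPS to LPS+ET, Tcp1 (-0.65), Cct5 (0.25) and Cct8 (0.44) did not overlap, each with the same smallest p. From LPS+ET to LPS+ET+KU, Cct3 (0.17) and Cct4 (-0.29) did not overlap. With counts as deposited, the groups of LPS and LPS+ET+KU stayed apart for Tcp1 (-0.59), Cct4 (-0.42) and Cct8 (0.32) and overlapped for Cct3 (0.14) and Cct7 (0.11). Without the libraries of under 100000 counts they stayed apart for Tcp1 (-0.48) and Cct4 (-0.63) and overlapped for Cct3 (0.25), Cct8 (0.36) and Cct7 (0.02). Cct3 and Cct4 overlapped between LPS+ET and LPS+ET+KU under both of these settings.

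Over the whole profile, the test of the interaction of treatment and fraction called 2 of 8 members with etoposide, where 5.72% of 10360 genes passed. They were Tcp1, with an adjusted p of 1.1e-05, and Cct4, with 0.0058 (edgeR). The fit takes the fraction libraries of a gradient as separate values, though each group rests on 4 gradients. With treatment in place of a term per gradient, 0 of 8 members passed, so Tcp1 was lost too, and 142 of 10360 genes did. Tcp1 was called with any 1 of the 8 gradients left out, and Cct4 in 3 of 8, with an adjusted p of 0.128 without the LPS gradient of pool LUL15. A total of 2 members were called again with KU55933 added, Tcp1 with 5.3e-06 and Cct4 with 0.0090, where 3.63% of 10472 genes passed. There Tcp1 was called in 8 of 8 fits with a gradient left out and Cct4 in 2 of 8, with an adjusted p of 0.175 when the LUL15 gradient of LPS+ET was left out and of 0.0438 without the libraries of under 100000 counts. With treatment in place of a term per gradient, 1 of 8 members passed in this comparison, and 110 of 10472 genes.

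Single fractions show how the profile of Tcp1 differed between the groups. Fraction 13 held 15.8 ± 5.50% of it in LPS, 7.68 ± 3.21% in LPS+ET and 6.26 ± 1.88% with KU55933 added. Fraction 6 went from 6.81 ± 0.93% in LPS to 13.0 ± 3.08% in LPS+ET and 12.0 ± 1.32% with KU55933 added. The LPS+ET gradients did not share a peak, which lay at fractions 15, 5, 6 and 6. Fraction 15, a heavy fraction, held 6.60 ± 1.08% in LPS, 9.05 ± 3.18% in LPS+ET and 3.22 ± 2.42% with KU55933 added. Fraction 7, the heaviest monosome fraction, set the inhibitor apart: it held 4.83 to 7.12% in LPS, 3.83 to 6.97% in LPS+ET and 13.3 to 15.5% with KU55933 added, and was the peak in all 4 gradients with the inhibitor. This was not particular to Tcp1. Fraction 7 held 3.60 to 4.43%, 2.90 to 4.02% and 5.03 to 7.77% of Cct3 in the same order of groups. For Cct2 (7.97 to 12.0% and 9.90 to 14.7%) and Cct4 (8.16 to 11.4% and 10.1 to 11.3%) LPS+ET and LPS+ET+KU overlapped there. The mean position of Tcp1 was 10.7 in LPS, 9.42 in LPS+ET and 9.13 with KU55933 added. Cct4 went from 11.0 to 9.88 and 9.26, and its mean share in fraction 14 from 15.8% to 10.6% and 5.95%. The mean position of Cct3 was 12.2, 11.9 and 12.0.

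**Figure D4:**
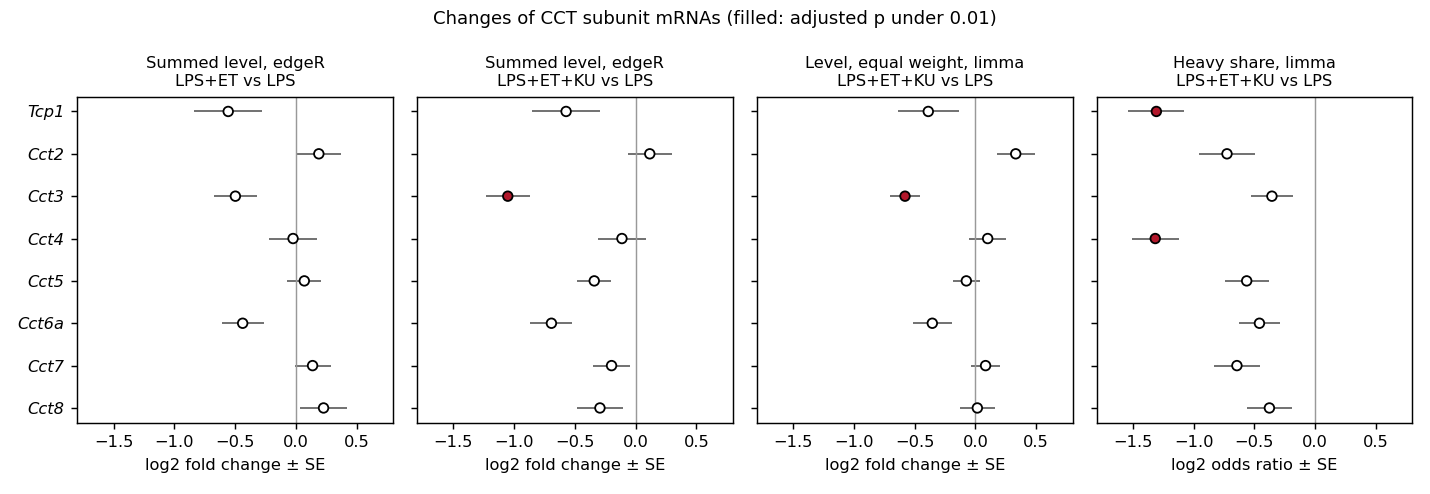
Log2 change of each CCT gene, with bars for the SE, in 4 panels: the summed level of LPS+ET against LPS and of LPS+ET+KU against LPS (edgeR), and for LPS+ET+KU against LPS the level with equal weight per fraction and the log2-odds of the heavy share (limma), with filled points for an adjusted p under 0.01 and a vertical line at 0. The estimates of the heavy share lie below 0 for the 8 members, those of Tcp1 and Cct4 (-1.31 and -1.32) the lowest, and Cct3 is filled in both panels on the level between LPS+ET+KU and LPS.

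Because each ring needs 1 copy of each subunit, the balance between the members was compared as each gene's share of the 8 genes' summed counts. Cct7 took 27.1 ± 1.32% of them in LPS and 31.4 ± 1.52% in LPS+ET, Cct6a 18.05 ± 1.6% and 14.1 ± 2.59%, and Cct3 10.6 ± 0.82% and 7.94 ± 0.54%. These 3 did not overlap between the groups, with an exact permutation p of 0.0286 (two-sided), the smallest the design allows. Adjusted over the 16 tests of this kind the lowest p was 0.152. The smallest p that the design allows lies above the threshold for a call even unadjusted, so these tests could not call any member. Tcp1 took 9.83 ± 2.00% and 7.00 ± 2.45%, with an exact p of 0.143 in a test that does not use the pools. Within each pool its share was lower in LPS+ET, at 7.98, 9.93, 4.36 and 5.75% against 10.9, 12.1, 7.95 and 8.36% in LPS. Between LPS+ET+KU and LPS+ET the lowest exact p was 0.114, for Cct3, at 6.71 ± 1.16% and 7.94 ± 0.54%.

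Over the 12 gradients the levels of the members went together only in part. Pearson's r of a member's log2 CPM with the mean of the other 7 was 0.67 for Cct5, 0.58 for Cct3 and 0.58 for Cct7, 0.42 for Cct6a, 0.30 for Tcp1, 0.26 for Cct8, 0.24 for Cct4 and -0.01 for Cct2. The points share pools and treatments, and r is given as a description. Outside the family, the genes whose levels were most like the members' mean, of 12747, were Gart, an enzyme of purine synthesis (r = 0.92), Mettl13 (0.92), Atp5a1, a subunit of ATP synthase (0.91), Usp50 (0.91), Hspa9, the mitochondrial Hsp70 (0.91), Pepd (0.90), Tubb4b, a beta tubulin (0.89) and Polr2l (0.89). The LPS profile nearest to the mean of the 8 members, of 7992 genes, was that of Sars, the seryl-tRNA synthetase, with a summed difference of 5.50 percentage points over the 13 fractions. It was followed by Paics (6.63), another enzyme of purine synthesis, and St13 (7.20), a co-chaperone of Hsp70, and then Acadl, Rnh1, Dnpep, Nt5dc1 and Rb1 (8.14 to 9.69). The members themselves lay 9.05 (Cct7) to 28.8 (Cct3) percentage points from their own mean. The median over 8000 genes was 51.5 percentage points from that mean.

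The partners of the chaperonin were read from lists of genes. Of prefoldin, which hands actin and tubulin chains to CCT, 0 of 5 genes tested passed in the summed level in any of the 3 comparisons, and their median log2 change was 0.02, -0.02 and -0.16 for LPS+ET against LPS, LPS+ET+KU against LPS+ET and LPS+ET+KU against LPS. Of the phosducin-like proteins, which bind the chaperonin, 0 of 3 passed in the summed level (medians of 0.29, -0.33 and 0.16), and Pdcl rose in monosomes with etoposide by 2.28 ± 0.53 on the log2 scale (adjusted p 0.0083). With the pool as a replicate block the summed level of Pdcl also rose, by 1.79 ± 0.18 (adjusted p 4.8e-06). Of the 6 cofactors that take tubulin after CCT, 0 passed in the summed level (medians of -0.34, 0.29 and -0.14). With the block, Tbcb fell by 0.85 ± 0.19 with etoposide (adjusted p 0.0030) and Arl2 rose by 0.65 ± 0.14 with KU55933 added (adjusted p 0.0077). The block called 26.7% and 6.36% of all genes in these comparisons.

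Of 22 known clients of CCT, 3 rose and 1 fell with etoposide in the summed level (edgeR, as for all lists here), where 12.7% of all genes were called. Tubb6, a beta tubulin, rose by 4.05 ± 0.30 on the log2 scale, Wrap53, a subunit of telomerase that overlaps the p53 gene on the opposite strand, by 1.13 ± 0.25 and Tubb2a by 0.69 ± 0.16. Plk1, a mitotic kinase, fell by 2.39 ± 0.32. With KU55933 added to etoposide, 2 of 22 fell, the tubulins Tuba1c (by 1.26 ± 0.20) and Tubb4b (by 1.30 ± 0.19), where 0.455% of all genes were called. Between LPS+ET+KU and LPS 1 rose, Tubb6, and 5 fell, Tuba1c, Tubb4b, Plk1, Cdc20 and Rptor, where 10.7% of all genes were called. The median of the 22 was -0.10, -0.20 and -0.39 in the 3 comparisons, against 0.03, 0.04 and 0.09 for all genes. The pool as a replicate block added falls of Ccne1, Fzr1, Tuba1a and Tuba1c with etoposide, of Cdc20, Tuba1b and Tubb6 with KU55933 added, and of Actb, Fzr1 and Tuba1b between LPS+ET+KU and LPS, where Tubb2a and Vhl rose. With the block, 26.7%, 6.36% and 28.1% of all genes were called in these 3 comparisons. The heavy share of Tubb5, the most abundant client gene, fell between LPS+ET+KU and LPS, by 1.55 ± 0.22 in log2-odds (adjusted p 0.0057, limma), the only call among 20 clients tested.

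Of 16 genes of the cytosolic Hsp70 and Hsp90 system, Hspa1a and Hspa1b, the stress-induced Hsp70 genes, rose with etoposide by 5.07 ± 0.45 and 3.27 ± 0.34 on the log2 scale. They are near-identical copies, so the split of tags between them is uncertain. Their estimates with KU55933 added were -1.19 and -0.88, with adjusted p of 0.090 and 0.138. Between LPS+ET+KU and LPS, Cdc37 (by 0.95 ± 0.17) and Hspa4 (by 0.76 ± 0.15) fell. The median of the 16 was -0.29, -0.31 and -0.62. The replicate block added falls of Hspa4 and Hsph1 with etoposide, of Hsp90aa1 and Hspa1a with KU55933 added, and of Dnaja1, Fkbp4, Hsph1, Ptges3 and Stip1 between LPS+ET+KU and LPS. With the block, 26.7%, 6.36% and 28.1% of all genes were called in these 3 comparisons. The heavy share of Hspa8, the constitutive Hsp70, fell by 1.71 ± 0.27 in log2-odds between LPS+ET+KU and LPS (adjusted p 0.0076, limma), as did those of Tcp1 and Cct4, and it was the only call among 13 genes of this list. Of the 6 genes of the mitochondrial chaperonin and Hsp70, 0 passed in the summed level (medians of 0.15, -0.29 and -0.14), and with the block Hspe1 fell between LPS+ET+KU and LPS. Of 4 genes related to CCT by sequence, Bbs12 fell by 2.42 ± 0.56 between LPS+ET+KU and LPS (adjusted p 0.0077). Of 3 transcription factors known to act on chaperone genes, Myc fell with etoposide by 1.62 ± 0.33 (adjusted p 0.0030), and Hsf1 had an estimate of -0.02 ± 0.15.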

How the data were processed

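The data are deduplicated 3′-end tags of 157 libraries. The authors mapped them to GRCm38/mm10, summed them per Ensembl gene and deposited raw counts. Their processing notes name TopHat2 2.0.12, HTSeq and DESeq2 1.6.3. Equal RNA concentrations entered the libraries, so a library total says nothing of the RNA in a fraction. Columns were matched to samples by name, 79 to a single sample (pools LUL15 and LUL17) and 78 to a treatment and fraction only. The single fraction 17 library (777 counts, 1 of the members) was not used. The file's start positions are counted from 0 and were moved by 1 base.

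Counts were summed over fractions 4 to 16, or a class, per gradient, and compared with edgeR 4.0.16 (TMM, filterByExpr, quasi-likelihood test, 12 gradients, treatment as the only term). The heavy share was compared with limma 3.58.1 on log2-odds (fractions scaled to CPM, 0.5 counts added, genes with a mean of 100 counts or more), and the profile with an edgeR interaction of treatment and fraction with a term per gradient (104 libraries). Single values were compared by exact permutation. Calls needed an adjusted p under 0.01. Alternatives were DESeq2 1.42.0, RLE, no filter, other weights of fractions, a pool block, and gradients or shallow libraries left out. Steps were tested on simulated data in R 4.3.3. Sequences came from GENCODE M21 transcripts and RefSeq.

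The members and gene lists were chosen with earlier results of these data known. Named are the 8 members, the 8 genes nearest in level and the 8 nearest in LPS profile, and list genes that were called or that are the most abundant of their list. The study gives 4 biological replicates per group. Pools pair the gradients: deviations from the group means correlated within a pool at 0.358 to 0.896 in 12 of 12 pairs, and between pools at -0.673 to 0.406, with 8 of 36 above 0.1. A column with no sample number was paired by its pool name. The summed level of the B cell markers and some poly(A) site sequences are not reported here.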

Additional observations from a re-analysis of the deposited data

Results flagged for a closer look

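Of 48 groups of 4 gradients (level and heavy share of 8 members in 3 treatments; the 4 values of a group stand in the order of pools LUL15 to LUL18), 3 held a value far from the other 3, by the gap to the nearest value over the range of the group. Chance gives this in about 1 of 20 groups, so this number of groups is near what chance gives. Both levels were of Cct2 in pool LUL17: 96.4 CPM in LPS, against 135 to 142 CPM in the other pools (gap over range 0.843), and 127 CPM in LPS+ET+KU, against 155 to 159 CPM (0.872). The LPS+ET gradient of the same pool was the lowest of its group too, at 122 CPM, and Tcp1 was lowest in pool LUL17 in each group. The other was the heavy share of Cct5 in the LPS+ET gradient of pool LUL15, 60.1% against 54.2 to 54.8% (0.893), and 7 of 8 members had their highest LPS+ET heavy share in that gradient.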

How the results depend on the processing

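The numbers of members called moved with the tool and the pairing. With the library pool as a replicate block, calls for the summed level were 1 for LPS+ET against LPS and 3 for LPS+ET+KU against LPS, for light and heavy polysomes with etoposide 1 each, and for the heavy share of LPS+ET+KU against LPS 1; no other count of members called changed. DESeq2 called 1 in the summed level of LPS+ET+KU against LPS+ET, 3 against LPS, 2 in monosomes and 1 in light polysomes with etoposide, and 2 in heavy polysomes with KU55933. A threshold of 0.05 gave 2 for the summed level of LPS+ET+KU against LPS and 1 in light polysomes with etoposide. At that threshold 2903 of 12755 and 1957 of 9922 genes passed. For monosomes with etoposide, no filter and equal weight per fraction each gave 0, where 858 of 18272 and 398 of 8932 genes passed. For the heavy share of LPS+ET+KU against LPS, counts as deposited gave 0, a minimum mean of 10 counts 0, and leaving out shallow libraries, chosen after the data were seen, 1. In that order, 0 of 8000, 0 of 12227 and 67 of 8000 genes passed. For the profile, treatment in place of a term per gradient gave 0 with etoposide and 1 with KU55933, RLE 1 and 1, no filter 1 and 1, and leaving out shallow libraries 1 with KU55933. Among all genes, RLE called 650 of 10360 with etoposide and 320 of 10472 with KU55933. No filter called 851 of 19175 and 514 of 19475, and leaving out shallow libraries 386 of 10713 with KU55933. With 1 gradient left out, counts ranged over 1 to 2 for the summed level of LPS+ET+KU against LPS, 0 to 1 for monosomes with etoposide, 0 to 2 for the heavy share of LPS+ET+KU against LPS, and 1 to 2 for both profiles, and did not change elsewhere. The causes were not tested.

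Over all genes, calls for the summed level were 1618, 58 and 1361 for the 3 comparisons in the order LPS+ET against LPS, LPS+ET+KU against LPS+ET and LPS+ET+KU against LPS. The replicate block gave 3403, 811 and 3589, DESeq2 2391, 412 and 2263, and only the 8 gradients compared 1652, 0 and 1059. Equal weight per fraction gave 1085, 21 and 875. Called genes of the heavy share between LPS+ET+KU and LPS were 70, and 51 with the block, 40 with only the 8 gradients compared, 0 with counts as deposited and 0 with a minimum mean of 10 counts. Profile calls were 593 and 380, and 142 and 110 with treatment in place of a term per gradient. In a single shallow library a member could have as few as 0 to 2 counts.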

Other observations

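The heavy share divided the 8 CCT genes along the ring. This grouping was made after the values were seen, and has no test. Cct3, Cct6a, Cct8 and Cct7, whose subunits form the side of the ring that binds ATP less tightly, had heavy shares that lay above those of Tcp1, Cct4, Cct2 and Cct5, the other side, within each of the 12 gradients. Averaged over the 4 genes of a side, the share was 71.7 ± 0.94% (SD, n = 4 gradients) against 58.8 ± 2.40% in LPS, 67.2 ± 3.18% against 47.0 ± 4.40% in LPS+ET, and 64.8 ± 2.40% against 42.2 ± 2.92% in LPS+ET+KU. The 2 sides were also apart in 12 of 12 gradients without the libraries of under 100000 counts and in 11 of 12 with counts as deposited, all but an LPS+ET gradient. Members of a gradient share its libraries.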
